A study of Mus musculus with 18 samples.

Results

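Apolipoproteins are the protein parts of the particles that carry triglyceride and cholesterol in blood, and the liver secretes most of them. The 10 genes examined here are those of apolipoproteins that the liver is known to make, and they were taken by symbol (Apoa1, Apoa2, Apoa4, Apoa5, Apob, Apoc1, Apoc2, Apoc3, Apoe and Apom) from tables of 25266 genes. All 10 were found and all 10 passed the filter on low values that left 11090 genes for testing. RNA was sequenced from the livers of 18 male C57BL/6 mice. FF mice carry floxed alleles of Ppp6r3, which encodes the SAPS3 subunit of protein phosphatase 6, and LKO mice carry the same floxed alleles together with Alb-Cre, a Cre recombinase driven by the albumin promoter and therefore active in hepatocytes. Since FF mice carry no Cre, the presence of Cre and the loss of SAPS3 cannot be told apart. From 8 weeks of age the mice were fed for 16 weeks a control diet (CD, 10% of calories from fat) or a high fat diet (HFD, 32.5% of calories from fat), which gave 4 FF CD, 4 LKO CD, 5 FF HFD and 5 LKO HFD mice.

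Apob is the structural protein of very low density lipoprotein and remains on the particle until it is taken up, whereas the smaller apolipoproteins exchange between particles. Apoa1 and Apoa2 are the main proteins of high density lipoprotein (HDL), and Apom is a minor one that carries sphingosine 1-phosphate. On triglyceride-rich particles, Apoc2 is the cofactor that lipoprotein lipase needs, Apoc3 and Apoc1 slow lipolysis and uptake, Apoa5 favours lipolysis, Apoa4 is secreted with newly made particles and Apoe binds the receptors that clear remnants. Many of these genes have binding sites for hepatic nuclear receptors such as HNF4A in their promoters or enhancers.

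The tables gave each transcript in RPKM, its reads divided by transcript length and by the depth of the library, so that levels of different genes could be set side by side. The depth was 23.4 to 37.0 M reads per mouse, as recovered from the steps between low values, and the values of the 10 genes rested on 1603 to 324634 reads each, as estimated from the annotated length. Ppp6r3 itself was at 8.38 to 10.98 RPKM in FF CD and 3.88 to 4.08 RPKM in LKO CD mice, and at 7.55 to 8.82 RPKM in FF HFD and 4.22 to 4.87 RPKM in LKO HFD mice, so that all LKO mice were below all FF mice. Hepatocyte markers were abundant in every mouse (Alb at 21308 RPKM or more, Hnf4a at 70.9 RPKM or more). Some genes listed as markers of other cells moved with HFD in FF mice. There 5 of 8 endothelial, 3 of 8 tested Kupffer cell and macrophage, 2 of 8 stellate cell and 2 of 3 tested adipocyte markers were called higher. Of the hepatocyte markers, 2 of 7 were called lower, Cps1 and Ahsg at log2 fold changes of -1.24 and -0.61. The others were Fgb (-0.54), Hnf4a (-0.20), Serpinc1 (-0.14), Ttr (0.11) and Alb (0.22). The 3 tested adipocyte markers were Cidec, Fabp4 and Cfd, at log2 fold changes of 3.93, 1.97 and 0.76. The adipocyte markers Adipoq, Lep and Plin1 were at 0.760 RPKM or less in every mouse and were not tested. In these whole livers, fewer cells of a type and less RNA per cell cannot be told apart, and the part of other cells in the differences below was not tested. Genes with a transcript under 1 kb, of which Apoa2, Apoc1, Apoc2 and Apoc3 are examples, stood lowest in FF HFD mouse 3 and LKO HFD mouse 4 (median log2 deviations of -0.23 and -0.21 over 786 genes).

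Positions are those of the GENCODE annotation on GRCm38, the build (mm10) given for the alignment. Of the 10 genes, 7 lie in clusters on chromosomes 9 and 7. On chromosome 9, Apoa1 (46228580 to 46230466, plus strand), Apoc3 (46232933 to 46235636, minus strand), Apoa4 (46240696 to 46243459, plus strand) and Apoa5 (46268633 to 46271919, plus strand) lie within 43.34 kb. On chromosome 7, Apoc2 (19671579 to 19677941), Apoc1 (19689481 to 19692660) and Apoe (19696109 to 19699188) lie within 27.61 kb on the minus strand. Apoa2 is on chromosome 1 (171225054 to 171226379, plus strand), Apob on chromosome 12 (7977648 to 8016835, plus strand) and Apom on chromosome 17 (35128997 to 35132050, minus strand). Apoc2 shares 646 exonic bases with Gm44805, a transcript of the same strand that was listed at 0.859 to 4.17 RPKM. Apoa4 and Apoa5 share exonic bases with annotated antisense transcripts, and since the strand used in counting is not given in the sources used here, reads of such pairs cannot be told apart.

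The upstream sequences of 3 genes whose transcripts differed between groups are shown because they differ in the short motifs they hold. They were taken from RefSeq (GRCm38.p6), which had entries for 8 of the 10 genes, and each run ends at the base before the annotated start of the gene. For Apoa1 it is chr9:46228380-46228579 (plus strand), for Apoa4 chr9:46240594-46240695 (plus strand) and for Apoc2 chr7:19677942-19678191 (minus strand), written 5′ to 3′ with matches to the searched motifs in capitals.

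Apoa1 upstream: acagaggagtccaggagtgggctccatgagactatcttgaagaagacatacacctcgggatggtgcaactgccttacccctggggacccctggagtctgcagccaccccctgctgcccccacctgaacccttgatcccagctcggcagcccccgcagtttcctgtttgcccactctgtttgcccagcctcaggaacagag

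Apoa4 upstream: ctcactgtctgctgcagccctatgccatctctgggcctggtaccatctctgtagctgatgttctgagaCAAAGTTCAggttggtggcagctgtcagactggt

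Apoc2 upstream: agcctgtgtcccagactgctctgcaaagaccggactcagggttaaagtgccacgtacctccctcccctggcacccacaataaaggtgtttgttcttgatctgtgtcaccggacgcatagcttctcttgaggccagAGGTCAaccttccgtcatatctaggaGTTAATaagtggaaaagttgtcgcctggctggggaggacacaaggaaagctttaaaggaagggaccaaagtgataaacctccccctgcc

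Over the 250 bases before each RefSeq start, 6 motifs were searched on both strands in 32851 promoters. Apoa2, Apoa5 and Apoe have several RefSeq starts, each with a window of its own, so that they had more chances of a match than the share per promoter tells. In the windows of the 8 genes, matches overlapped only for the TATA box of Apoe, on its opposite strands. The core of a binding site for HNF4 and PPAR receptors (CAAAGNNCA, in 5.49% of all promoters) was found for Apoa4, as in its run above, and for Apob. The nuclear receptor half-site AGGTCA (14.02% of promoters) and the HNF1 half-site GTTAAT (6.43%) were both found for Apoc2, the former also for Apoa2, before a start that lies upstream of the annotated gene, and the latter also for Apoe. The TATA box TATAAA (12.4%) was found for Apoa2, Apoa5, Apob and Apoe, the E-box CACGTG (6.02%) for Apoa5, and the half-site TGACGT of the cAMP response element (6.47%) for none of the 8 genes. The matches of Apoe lay in windows inside its annotated gene, and the window before the start of that gene held none. Neither the Apoa1 nor the Apom window held any of the 6. The Apom window (chr17:35131802-35132051, minus strand) lay almost wholly inside the annotated gene, which begins at 35132050 on that strand. Almost no sequence upstream of Apom was therefore searched. These are matches of letters in a short window and say nothing about binding.

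The 10 transcripts differed widely in level, and 4 of them (Apoe, Apoa1, Apoc1 and Apoa2) were among the 20 most abundant transcripts of every mouse, with Apoa4 beside them in FF HFD mouse 3 alone. Together the 10 took 4.15% to 6.60% of the summed RPKM. In FF CD livers the order of mean RPKM was Apoe (5379 ± 585, SD, n = 4), Apoa1 (5113 ± 400), Apoc1 (3736 ± 403), Apoa2 (2764 ± 230), Apoc3 (917 ± 115), Apoa4 (345 ± 155), Apoa5 (293 ± 36.2), Apob (242 ± 13.2), Apom (165 ± 31.2) and Apoc2 (144 ± 41.8). The ranges of 4 of the 9 neighbouring pairs in this order overlapped, those of Apoe with Apoa1, Apoa4 with Apoa5, Apoa5 with Apob, and Apom with Apoc2. In FF HFD livers Apoa1 stood behind Apoe, Apoc1 and Apoa2, although its range overlapped that of Apoa2. There Apoa4 stood next, above Apoc3 with no overlap, whereas Apoc3 was above Apoa4 in all 4 FF CD mice. In LKO HFD livers the order was that of the LKO CD livers, with overlap in 6 of 9 neighbouring pairs.

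**Figure D1:**
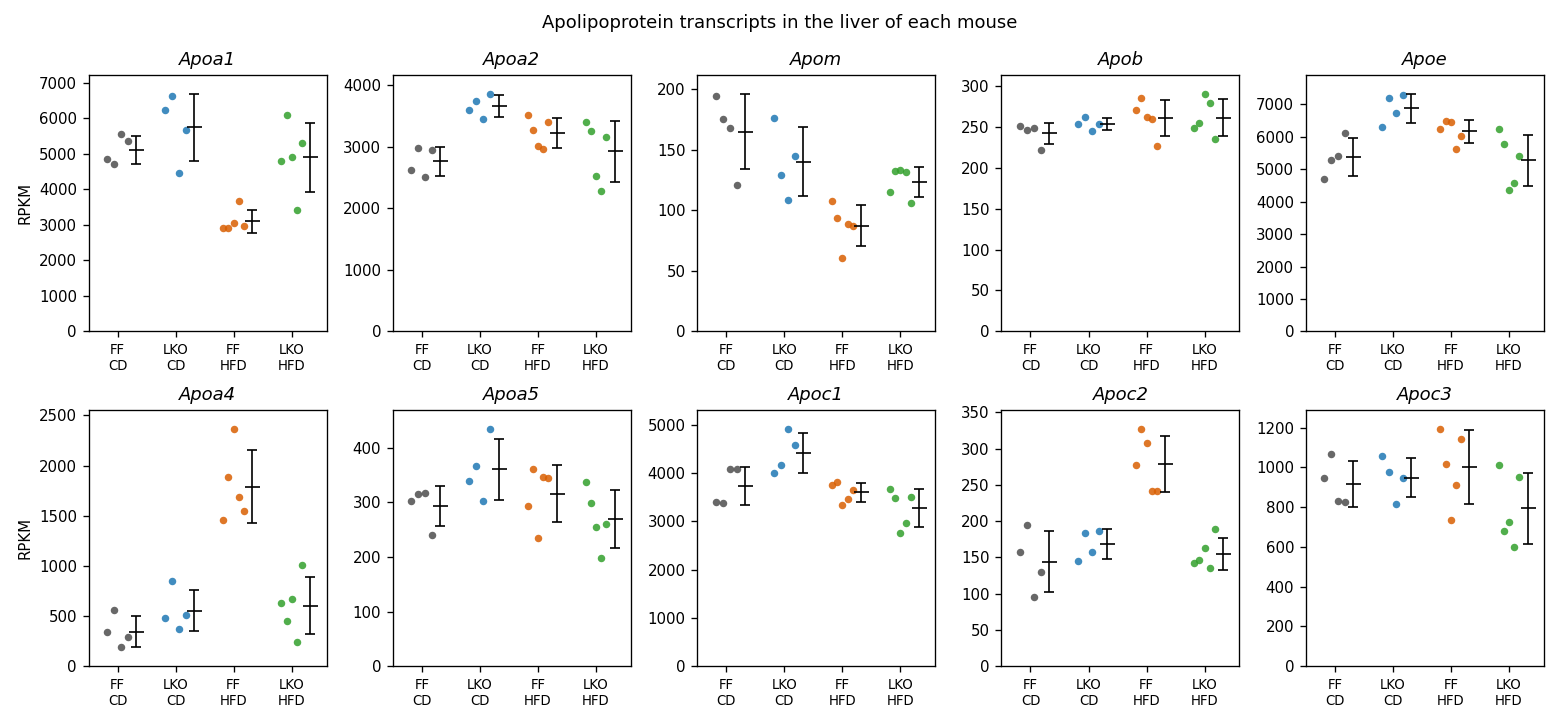
RPKM of the 10 apolipoprotein transcripts (linear axes from 0, a scale per gene) in the liver of each mouse, with 1 point per mouse by group and the mean ± SD in black. Apoa4 and Apoc2 are higher in every FF HFD mouse than in any other mouse. Apoa1 and Apom have their lowest means in the FF HFD mice, which overlap the LKO HFD mice, while Apob spans 222 to 290 RPKM over all 18 mice.

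To see how HFD changed these transcripts in mice with SAPS3, FF HFD livers were compared with FF CD livers. Of the 10 genes, Apoa4 and Apoc2 rose and Apoa1 and Apom fell (4 genes, called where the change exceeded 1.5-fold and the adjusted p was under 0.05), and 6 did not pass. Over all tested genes 6.60% were called in this comparison. The 2 groups did not overlap for the same 4 genes, against 18.3% of all tested genes. For the 10 genes the median log2 change was 0.11, and for all tested genes it was 0.07.

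Apoa4, the apolipoprotein secreted with new triglyceride-rich particles, changed most. It was at 337, 561, 195 and 288 RPKM in the 4 FF CD mice and at 1456, 1882, 2369, 1691 and 1552 RPKM in the 5 FF HFD mice. Every FF HFD mouse was above every FF CD mouse, and the mean was 5.19 times as high. The log2 fold change was 2.45 (95% confidence interval 1.73 to 3.18; limma, adjusted p = 0.000118), and the exact permutation test gave p = 0.00794, the smallest it can give for these group sizes. FF HFD mouse 3, which had the most Apoa4, was also the mouse in which transcripts of intestinal epithelium stood out. Alpi was at 7.82 RPKM there and at most at 0.185 RPKM in any other mouse, Vil1 at 1.28 against at most 0.131 RPKM, Sis at 0.775 against at most 0.0242 RPKM and Lct at 0.339 against at most 0.0233 RPKM. Of this list of 5 enterocyte genes, only Fabp2 was abundant in other mice. Fabp2 was at 131 RPKM in FF HFD mouse 3 and at up to 162 RPKM in another mouse. It made up most of the summed level of the list, which therefore says little about the other genes. The sum was 42.3 to 90.4 RPKM in FF CD, 94.8 to 133 RPKM in LKO CD, 121 to 162 RPKM in FF HFD and 55.7 to 127 RPKM in LKO HFD mice. Without FF HFD mouse 3 the log2 fold change of Apoa4 was 2.35 (limma, adjusted p = 0.000397). Apoc2, Apoa1 and Apom, which was lowest in that mouse, were then at 0.95, -0.72 and -0.79 and were still called.

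Apoc2, the cofactor of lipoprotein lipase, was at 157, 194, 95.5 and 129 RPKM in FF CD and at 277, 328, 307, 241 and 242 RPKM in FF HFD mice. Every FF HFD mouse was above every FF CD mouse, with a mean 1.94 times as high. The log2 fold change was 0.99 (95% confidence interval 0.64 to 1.33; limma, adjusted p = 0.000558; exact permutation p = 0.00794). Apoc1 and Apoe, its neighbours on chromosome 7, had log2 fold changes of -0.05 (-0.28 to 0.19) and 0.20 (-0.05 to 0.45) and were not called (limma, adjusted p = 0.814 and 0.249). The value for Apoc1 turned positive when the mice were rescaled to the same sum (0.0447) or quantile normalized (0.337). The quantile normalized value passed the adjusted p alone (limma, adjusted p = 0.0307), so Apoc1 was not called. With quantile normalization Apoe was called higher (0.69; limma, adjusted p = 0.00359).

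Among the HDL genes, Apoa1 was at 4841, 4712, 5549 and 5350 RPKM in FF CD and at 2921, 2898, 3056, 3672 and 2980 RPKM in FF HFD mice. All 5 FF HFD mice were below all 4 FF CD mice, and the log2 fold change was -0.72 (95% confidence interval -1.04 to -0.40; limma, adjusted p = 0.00276; exact permutation p = 0.00794). With quantile normalization it was -0.50 and the fold change did not pass 1.5. Apom, the carrier of sphingosine 1-phosphate, was at 195, 176, 168 and 121 RPKM in FF CD and at 107, 93.8, 60.3, 88.2 and 86.9 RPKM in FF HFD mice. It was lower in every FF HFD mouse as well, with a log2 fold change of -0.91 (95% confidence interval -1.26 to -0.56; limma, adjusted p = 0.00102; exact permutation p = 0.00794). Apoa2, the other major HDL protein, had a log2 fold change of 0.23 (-0.03 to 0.48) and was not called (limma, adjusted p = 0.202).

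Apob had a log2 fold change of 0.11 with an interval of -0.08 to 0.29, the narrowest of the 10, and Apoa5 and Apoc3 had 0.10 (-0.23 to 0.43) and 0.11 (-0.23 to 0.46). None of these was called (limma, adjusted p = 0.420, 0.709 and 0.678). Within the chromosome 9 cluster, a gene that rose (Apoa4), a gene that fell (Apoa1) and 2 that were not called (Apoc3 and Apoa5) therefore lay side by side. The ratio of Apoa4 to Apoa1 within a mouse, which does not depend on the factor used to scale a mouse, was 0.0351 to 0.119 in FF CD and 0.461 to 0.775 in FF HFD mice. The ratio of Apoc2 to Apoc1 was 0.0234 to 0.0574 in FF CD and 0.0662 to 0.0918 in FF HFD mice. Both ratios were chosen after the values were seen and were not tested. The ratio of Apoa4 to Apoa1 sets a called rise over a called fall, so it adds no separate evidence. Ratios of Apoc2 to Apoc3 and of Apom to Apoa1 were also computed. The former was 0.115 to 0.182 in FF CD and 0.211 to 0.419 in FF HFD mice. The latter overlapped between these groups, at 0.0226 to 0.0402 and 0.0197 to 0.0367.

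**Figure D2:**
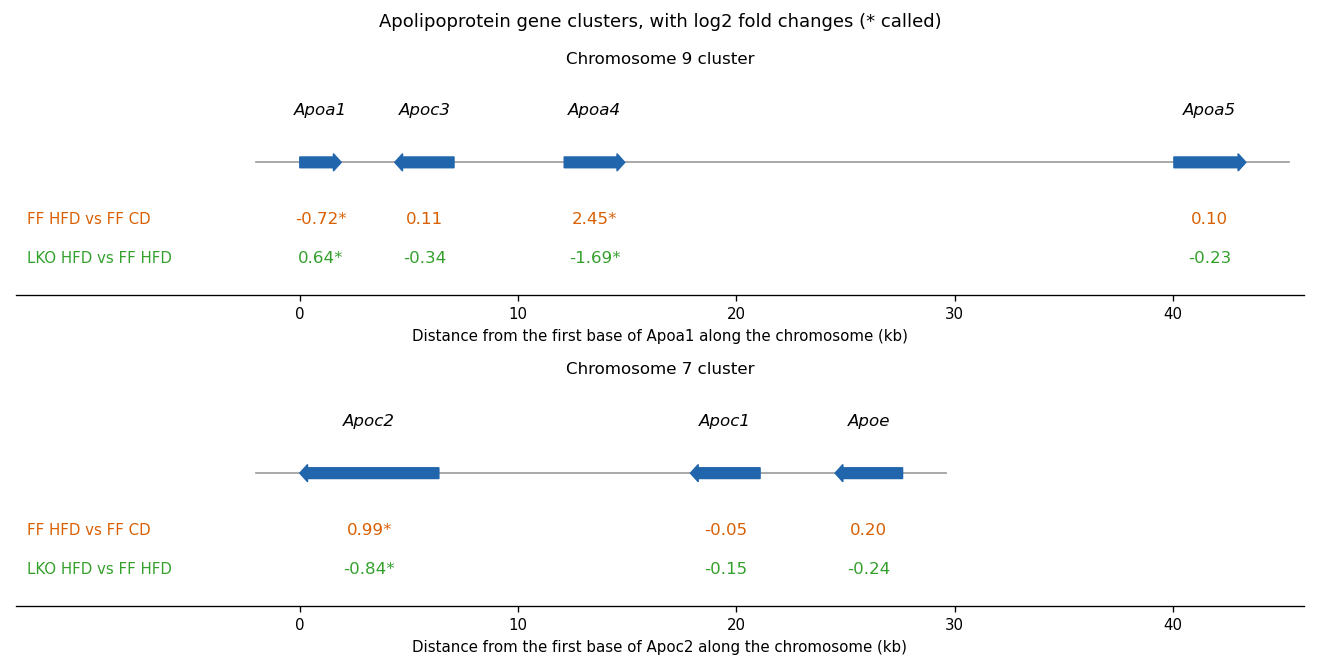
Maps of the chromosome 9 and chromosome 7 clusters to scale, with arrows from the start to the end of each gene and the distance in kb on the x axis. Below each gene are its log2 fold changes for FF HFD against FF CD (orange) and LKO HFD against FF HFD (green), with an asterisk where called, and Apoa4 stands at 2.45 and -1.69 beside Apoa1 at -0.72 and 0.64.

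The same diets were then compared in LKO mice. No gene of the 10 was called between LKO HFD and LKO CD livers, where 1.27% of all tested genes were called. Apoc1, a small apolipoprotein that slows lipolysis, passed the adjusted p alone, as did 4.05% of all tested genes, and 4 of the 10 genes had an unadjusted p under 0.05 against 22.3% of all tested genes (limma). The groups did not overlap for 3 of the 10 (Apoa2, Apoc1 and Apoe), against 9.04% of all tested genes. In these 3 the LKO HFD mice were lower. Over all 10 genes the median log2 change was -0.26, against 0.07 for all tested genes.

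Apoc1 was at 4008, 4162, 4925 and 4595 RPKM in LKO CD and at 3663, 3482, 2761, 2964 and 3500 RPKM in LKO HFD mice. The highest LKO HFD mouse lay below the lowest LKO CD mouse, and the log2 fold change was -0.44 (95% confidence interval -0.67 to -0.20; limma, adjusted p = 0.0403; exact permutation p = 0.00794), a fold change under 1.5. Over the 18 fits that each omitted 1 mouse, the adjusted p rose to as much as 0.131 (limma). Apoe, the ligand for remnant receptors, was at 6310, 7190, 6740 and 7271 RPKM in LKO CD and at 6248, 5768, 4365, 4563 and 5404 RPKM in LKO HFD mice. Its log2 fold change was -0.40 (-0.65 to -0.15), which did not pass (limma, adjusted p = 0.0669). For Apoa2 it was -0.34 (-0.60 to -0.09; limma, adjusted p = 0.111) and for Apoa5 -0.43 (-0.76 to -0.10; limma, adjusted p = 0.123). LKO HFD mouse 4, in which short transcripts stood low, had the lowest Apoa1, Apoa2, Apoa4, Apoa5, Apoc2 and Apoc3 of its group and a sum over the 10 genes of 14818 RPKM, against up to 20612 RPKM in the group.

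The genes that changed with HFD in FF mice did not pass in LKO mice. Apoa4 was at 480, 847, 369 and 515 RPKM in LKO CD and at 634, 454, 672, 245 and 1011 RPKM in LKO HFD mice, so that the groups overlapped over most of their range. Its log2 fold change was 0.05 with an interval of -0.68 to 0.77, and its sign changed in 4 of the 18 fits that omitted 1 mouse. The values were -0.12 (-0.47 to 0.23) for Apoc2, -0.24 (-0.55 to 0.08) for Apoa1 and -0.16 (-0.51 to 0.19) for Apom (limma, adjusted p = 0.707, 0.378 and 0.5996). For Apob the log2 fold change was 0.04 (-0.14 to 0.22). Of the cell markers, 1 of 8 tested Kupffer cell and macrophage and 1 of 3 tested adipocyte markers were called higher here.

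**Figure D3:**
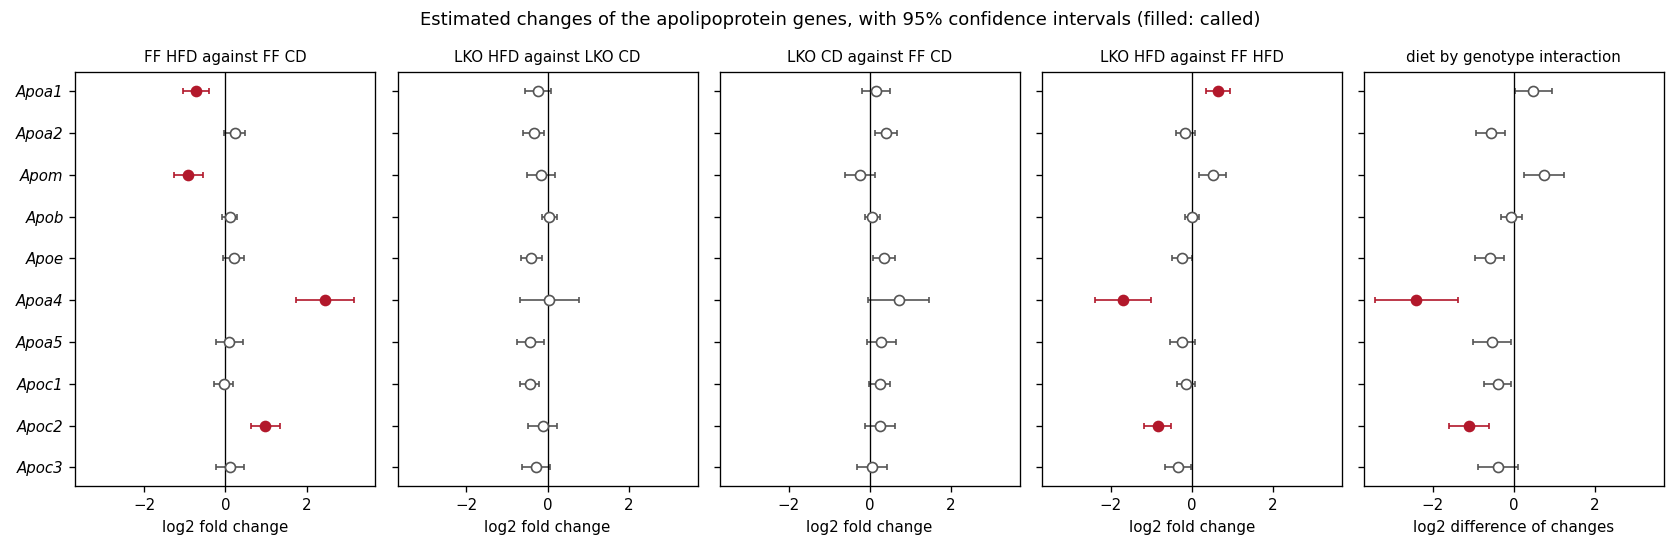
Estimated log2 fold changes of the 10 genes (points) with 95% confidence intervals (bars) in the 4 comparisons of groups, and the difference between the diet changes of LKO and FF mice in the last panel. Filled red points passed both thresholds, which were 4 genes for FF HFD against FF CD, 0 for LKO HFD against LKO CD, 0 for LKO CD against FF CD, 3 for LKO HFD against FF HFD and 2 for the interaction.

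Whether the diet changes differed between the genotypes was tested as an interaction, the log2 change in LKO mice minus that in FF mice. Apoa4 and Apoc2 were called, both negative, while 2.44% of all tested genes were called. The difference was -2.41 for Apoa4 (95% confidence interval -3.43 to -1.39; limma, adjusted p = 0.0101) and -1.11 for Apoc2 (-1.60 to -0.62; limma, adjusted p = 0.0136). Over the fits that each omitted 1 mouse they stayed between -2.67 and -2.12 and between -1.27 and -0.93, and both were called in all 18 fits. Of the 10 genes, 8 had an unadjusted p under 0.05, against 16.5% of all tested genes. The others among these 8 did not pass the adjusted p, with Apom at 0.75 (0.26 to 1.24; limma, adjusted p = 0.0997), Apoa1 at 0.48 (0.04 to 0.93; limma, adjusted p = 0.266), and Apoe, Apoa2, Apoa5 and Apoc1 between -0.60 and -0.39. How many of the 10 passed depended on the scaling of the mice, since rescaling them to the same sum gave 5 (1 positive and 4 negative) and quantile normalization gave 6 (1 positive and 5 negative). Without LKO HFD mouse 1, Apoa2 (-0.63) and Apoe (-0.66) were called too, which made 4. For Apob the difference was -0.07 (-0.32 to 0.19) and for Apoc3 -0.39 (-0.88 to 0.10).

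Next, the genotypes were compared under each diet. Under CD none of the 10 genes was called, where 0.225% of all tested genes were called, and 2 had an unadjusted p under 0.05 (limma) against 7.67% of all tested genes. These were Apoa2 and Apoe, whose groups also did not overlap, as was the case for 5.07% of all tested genes. Apoa2 was at 2630, 2974, 2509 and 2942 RPKM in FF CD and at 3598, 3749, 3455 and 3862 RPKM in LKO CD mice, 1.33 times the mean. The log2 fold change was 0.41 (95% confidence interval 0.14 to 0.68; limma, adjusted p = 0.291), and the exact permutation test gave p = 0.0286, the smallest it can give for 4 mice against 4. Apoe was at 4694, 5293, 5412 and 6119 RPKM in FF CD mice, below the 6310 to 7271 RPKM of the LKO CD mice, with a log2 fold change of 0.36 (0.09 to 0.62; limma, adjusted p = 0.406). Apoa4 had the widest interval, with a log2 fold change of 0.71 (-0.05 to 1.48; limma, adjusted p = 0.686) and overlapping groups. The median over the 10 genes was 0.26 and that over all tested genes 0.03. The sum over the 10 was 17747 to 20319 RPKM in FF CD and 21584 to 24484 RPKM in LKO CD mice. As a share of the summed RPKM of each mouse, the groups overlapped, at 4.58% to 6.00% and 5.82% to 6.60%.

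Under HFD 3 of the 10 genes were called between LKO and FF livers, with Apoa4 and Apoc2 lower and Apoa1 higher in LKO mice. Among all tested genes 2.07% were called. The groups did not overlap for Apoa4 and Apoc2, as for 4.67% of all tested genes. This comparison shares the FF HFD mice with that of the diets in FF mice, so they are not independent of each other.

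The 5 LKO HFD mice had 245 to 1011 RPKM of Apoa4, all below the 1456 RPKM of the lowest FF HFD mouse, and the mean of the FF HFD mice was 2.97 times theirs. The log2 fold change was -1.69 (95% confidence interval -2.37 to -1.01; limma, adjusted p = 0.00616; exact permutation p = 0.00794), and without FF HFD mouse 3 it was -1.59 (limma, adjusted p = 0.0193). Apoc2 was at 142, 146, 163, 135 and 189 RPKM in LKO HFD mice, again all below the 241 RPKM of the lowest FF HFD mouse. Its log2 fold change was -0.84 (-1.17 to -0.51; limma, adjusted p = 0.00503; exact permutation p = 0.00794). The ratio of Apoa4 to Apoa1 was 0.0714 to 0.190 and that of Apoc2 to Apoc1 0.0387 to 0.0589 in LKO HFD mice, both outside the ranges in FF HFD mice. The ratios of Apoc2 to Apoc3 (0.140 to 0.226) and of Apom to Apoa1 (0.0199 to 0.0384) overlapped their ranges in FF HFD mice.

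Apoa1 was at 4807, 6094, 4910, 3426 and 5312 RPKM in LKO HFD mice. All but LKO HFD mouse 4 were above the highest FF HFD mouse, which had 3672 RPKM. The log2 fold change was 0.64 (95% confidence interval 0.34 to 0.94; limma, adjusted p = 0.0169; exact permutation p = 0.0159). It lost its call in 2 of 18 fits with a mouse left out, to 0.62 without FF HFD mouse 2 (limma, adjusted p = 0.0520) and to 0.56, a fold change under 1.5, without LKO HFD mouse 2. It also fell short of the fold change when the mice were rescaled to the same sum (0.58) and of the adjusted p when only the 2 groups were fitted (limma, adjusted p = 0.0549) or no filter was applied (limma, adjusted p = 0.1002). Apom was at 115, 132, 133, 132 and 106 RPKM in LKO HFD mice, and the lowest of them overlapped FF HFD mouse 1. Its log2 fold change of 0.51 (0.18 to 0.84) did not pass (limma, adjusted p = 0.0715), and over the fits that each omitted 1 mouse it lay between 0.39 and 0.59. It was 0.39 without FF HFD mouse 3, the mouse with intestinal transcripts and the lowest Apom (limma, adjusted p = 0.163), and was called only without FF HFD mouse 1, at 0.59 (limma, adjusted p = 0.0421).

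The other 6 genes were not called under HFD. Their log2 fold changes were -0.34 (-0.67 to -0.01) for Apoc3, -0.24 (-0.47 to -0.00) for Apoe, -0.23 (-0.55 to 0.08) for Apoa5, -0.16 (-0.40 to 0.08) for Apoa2 and -0.15 (-0.37 to 0.08) for Apoc1. For Apob, the structural protein, the log2 fold change was 0.00, with the narrowest interval of the 10 (-0.17 to 0.17). Cell markers moved here as well, with 2 of 8 stellate cell and 2 of 3 tested adipocyte markers (Cidec and Fabp4) called lower in LKO mice. Of the hepatocyte markers, 2 of 7 were called higher in LKO mice, Fgb and Ahsg at log2 fold changes of 0.91 and 0.60. The others were Cps1 (0.54), Serpinc1 (0.07), Hnf4a (0.05), Alb (0.02) and Ttr (-0.22). The summed adipocyte markers were at 21.8 to 71.5 RPKM in FF HFD and 7.21 to 28.9 RPKM in LKO HFD mice, with Adipoq, Lep and Plin1 at 0.760 RPKM or less in every mouse.

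**Figure D4:**
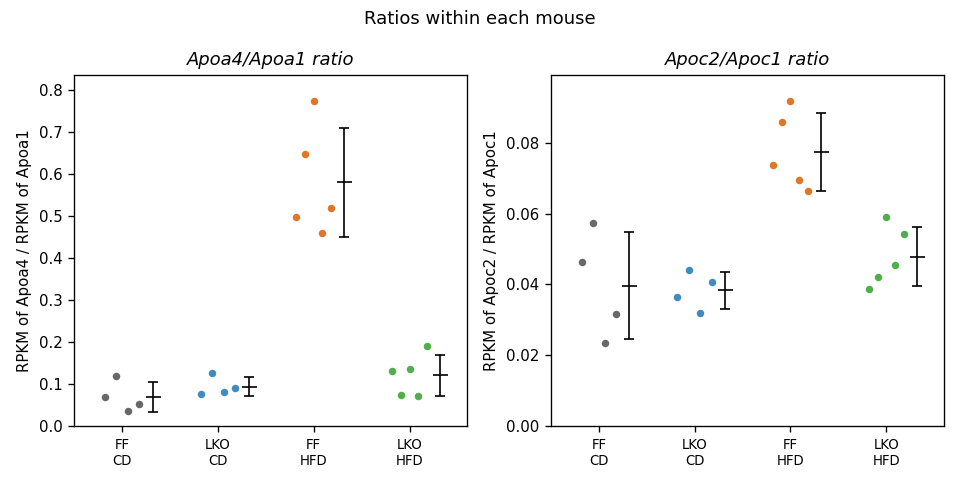
Ratios of RPKM within each mouse (linear axes from 0) for Apoa4 over Apoa1 and Apoc2 over Apoc1, with 1 point per mouse by group and the mean ± SD in black. The FF HFD mice lie at 0.461 to 0.775 and at 0.0662 to 0.0918, above all mice of the other 3 groups in both panels. Both ratios were chosen for the figure with the values known, and other ratios that were computed are not drawn.

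The transcripts whose pattern over the 18 mice was most like that of each gene were then ranked by Pearson's r of log2(RPKM + 1). This is a description that group differences, depth and batch can share. The low short transcripts of FF HFD mouse 3 and LKO HFD mouse 4 can be shared as well, and their part in r was not tested. For Apoa4 the transcripts of highest r were S100a10 (r = 0.95), Lgals1 (0.94) and Insig2 (0.94). Lgals1 was at 7.64 ± 2.54 (SD, n = 4) in FF CD, 18.5 ± 8.32 (n = 4) in LKO CD, 58.0 ± 15.4 (n = 5) in FF HFD and 21.2 ± 11.4 RPKM (n = 5) in LKO HFD mice, the order of the groups seen for Apoa4. Apoc2 was most like Pmpcb (0.94), BC029722 (0.92) and Tcn2 (0.92), Apom most like Ube2s (0.93), Abcb10 (0.92) and F10 (0.91), and Apoa1 most like Fetub (0.86), Rpl4 (0.85) and Gm12191 (0.85). For Apoa2 they were Cox6b1 (0.90), Ndufa3 (0.89) and Cuedc2 (0.89), and for Apoe Cox6b1 (0.91), Ddrgk1 (0.90) and Cabcoco1 (0.89). Apoc1 was most like Ptprd (0.90), Ddrgk1 (0.89) and Fuom (0.84), and Apoc3 most like Sdhb (0.89), Ndufb3 (0.88) and Micos10 (0.87). The closest to Apoa5 were Cox7b (0.89), Adk (0.87) and Mrps18c (0.87), and the closest to Apob were Gas2l1 (0.90), Gm38426 (0.88) and Pon2 (0.88).

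Other genes of lipoprotein metabolism were counted in lists. Of 15 other apolipoprotein genes, 8 were tested and 0 were called in any comparison. Among them was Apoc4, which belongs to the same gene cluster as Apoc2 and was at 492 ± 21.1 (SD, n = 4) in FF CD and 469 ± 72.4 RPKM (n = 5) in FF HFD mice. None of the 16 genes of lipoprotein assembly and export was called either. Mttp, which loads lipid onto Apob, had log2 fold changes of 0.19 for FF HFD against FF CD and -0.24 for LKO HFD against FF HFD (limma, adjusted p = 0.324 and 0.294).

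Of 17 genes for lipases and the remodelling of lipoproteins, 3 rose and 1 fell in FF HFD against FF CD livers. Over all tested genes 6.60% were called there. Those that rose were Gpihbp1, which anchors lipoprotein lipase to endothelium, at a log2 fold change of 0.88 (limma, adjusted p = 0.0261), Angptl4, an inhibitor of that lipase, at 0.84 (limma, adjusted p = 0.0107), and Lipa, the lysosomal acid lipase, at 0.78 (limma, adjusted p = 0.00244). Angptl8, a further inhibitor of the lipase, fell from 32.7 ± 12.5 (SD, n = 4) to 10.1 ± 3.45 RPKM (n = 5), a log2 fold change of -1.58 (limma, adjusted p = 0.000659). It was also the gene of the list with a called interaction (1.61; limma, adjusted p = 0.0288). No gene of this list was called between LKO HFD and LKO CD or between LKO HFD and FF HFD livers.

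Among genes for lipoprotein receptors and their regulators, Cd36 and Mylip rose and Sort1 fell in FF HFD against FF CD livers. Cd36, a fatty acid and lipoprotein receptor, rose by 3.76 on the log2 scale, from 4.12 ± 1.41 (SD, n = 4) to 67.2 ± 13.8 RPKM (n = 5), and Mylip, which targets the low density lipoprotein receptor for degradation, rose by 0.76. Sort1, a sorting receptor, fell by 0.67, from 1.90 ± 0.33 (SD, n = 4) to 0.82 ± 0.19 RPKM (n = 5). Mylip was also low, at 1.64 ± 0.64 in FF CD and 3.43 ± 0.84 RPKM in FF HFD mice. At such levels log2(RPKM + 1) gives a smaller change than the mean RPKM. Between LKO HFD and FF HFD livers Cd36 was lower (-1.88; limma, adjusted p = 0.00504), and Sort1 was higher (0.72; limma, adjusted p = 0.00222). Sort1 was at 2.05 ± 0.54 RPKM (SD, n = 5) in LKO HFD mice. In LKO HFD against LKO CD livers Lrp1, a remnant receptor, was called higher (0.68; limma, adjusted p = 0.0499), and the interaction was called for Cd36 (-3.30; limma, adjusted p = 0.00186).

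Of 29 tested regulators of apolipoprotein transcription, 2 fell in FF HFD against FF CD livers, about the 6.60% called among all tested genes. These were Foxa3, which fell by 0.80, and Srebf1, which fell by 0.94 on the log2 scale. Foxa3 was called higher in LKO HFD than in FF HFD livers (0.59; limma, adjusted p = 0.0307), and Srebf2, which drives cholesterol synthesis, was called higher in LKO HFD than in LKO CD livers (0.71; limma, adjusted p = 0.0197). Hnf4a was at 108 ± 12.2 (SD, n = 4) in FF CD, 96.8 ± 8.69 (n = 4) in LKO CD, 94.9 ± 16.4 (n = 5) in FF HFD and 98.8 ± 20.7 RPKM (n = 5) in LKO HFD mice and was not called in any comparison.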

How the data were processed

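RNA-seq of liver was analysed for 18 mice in 4 groups. The authors aligned reads with HISAT2 2.0.4 to mm10, used Partek, and deposited 1 table of RPKM per mouse. The annotation, the strand and the treatment of reads matching several genes are not given in the sources used here, and the labels name both a small RNA kit and standard RNA-seq. Values were used as deposited. The 10 genes and all lists were chosen with earlier results of these data known.

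The 11090 genes whose RPKM averaged 0.5 or more over the mice were fitted as log2(RPKM + 1) with limma 3.58.1 (R 4.3.3; lmFit, contrasts.fit, eBayes with trend), 1 coefficient per group, two-sided, adjusted by Benjamini-Hochberg over all tested genes. A fold change is on this scale. A gene was called where it changed more than 1.5-fold and its adjusted p was under 0.05, the thresholds of the study. Single genes were compared by exact permutation, two-sided. P-values measure the spread between mice. The script was tested on simulated data. Depth was estimated from the deposited values at 23.4 to 37.0 M reads per mouse and was not used as a weight in the fit. The estimate rests on 6 to 20 single-exon genes with low values per mouse, and the reads per gene depend on it.

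All 10 genes were named, genes of the lists where called (at most 4 per list and comparison), and for each of the 10 the 3 genes of highest r. Mttp, Apoc4 and Hnf4a were added after their values were seen, and Lgals1 was chosen likewise for its levels. Alternatives were the pseudocount, filter, scaling, groups fitted, replicate block, adjusted p alone and each mouse left out, and, chosen after seeing the data, the removal of a trend on transcript length and the omission of both mice with the lowest short genes. The motifs and the trimming of sequences were also set after seeing the data. Python 3.11.15, numpy 2.4.6, pandas 2.3.3, scipy 1.17.1 and matplotlib 3.10.9 were used. Proteins and serum lipids were not analysed here. Not every gene of the receptor list is reported here, so no counts are given for that list.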

Additional observations from a re-analysis of the deposited data

Results flagged for a closer look

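Among 40 sets of 4 or 5 mice (10 genes in 4 groups), 2 held a mouse set apart from the rest, where chance alone sets apart about 1 in 20. Apoa1 was at 3672 RPKM in FF HFD mouse 4, and the other 4 FF HFD mice were at 2898 to 3056 RPKM. Apob was at 222 RPKM in FF CD mouse 4, and the other 3 FF CD mice were at 246 to 250 RPKM.

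The change with diet differed between the genotypes for Apoa4 (-2.41 on the log2 scale; limma, adjusted p = 0.0101) and for Apoc2 (-1.11; limma, adjusted p = 0.0136).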

How the results depend on the processing

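In FF HFD against FF CD livers 4 genes were called under every alternative (with quantile normalization Apoe in place of Apoa1), and in LKO HFD against FF HFD 2 to 4 with a mouse left out. The count in LKO HFD against LKO CD was 0, and 1 by the adjusted p alone. The interaction count of 2 was 5 with the same sum, with or without the 10 genes in it, 6 with quantile normalization, 3 when centred on the median or without the length trend (Apom gained, at 0.75 and 0.83), and 2 to 4 with a mouse left out. Signs changed for estimates that were near 0 with the values as deposited. Apoc1 in FF HFD against FF CD was 0.0447 (same sum) and 0.0527 (same sum without the 10 genes). With quantile normalization Apoc1 was at 0.337, no longer near 0, and passed the adjusted p alone (limma, adjusted p = 0.0307). In LKO HFD against LKO CD, Apoa4 was -0.0491 centred on the median, -0.0416 with the replicate block and -0.18 to 0.33 with a mouse left out. Apob was -0.0562 centred and -0.0244 without the length trend. Apoc3 in LKO CD against FF CD was -0.0370 without the length trend and -0.00125 to 0.13 with a mouse left out. Apob in LKO HFD against FF HFD was -0.0544 and -0.0632 (same sum, with and without the 10 genes), -0.0276 (quantile), -0.0347 (centred), -0.0564 (length trend), -0.0189 (both mice with low short genes left out) and -0.0468 to 0.0397 with a mouse left out. The causes were not tested. The r of same-numbered mice was -0.11 to 0.27. No r of differently numbered mice was set beside it, so whether the replicate numbers pair the mice cannot be told. The replicate block left the counts of calls at 4, 0, 0, 3 and 2. The effect of depth and of the number of mice on the calls was not tested.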
